A study of Mus musculus with 24 samples.

Results

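The comparison described here is the loss of the constitutive androstane receptor (CAR) in mouse liver in which the pregnane X receptor (PXR) is present. It was made on the arrays whose labels name CAR-deficient or wild-type (WT) mice given phenobarbital, 6 arrays of each genotype, which are 12 of the 24 arrays of the study. The quantity compared is each probe's log2 ratio of phenobarbital-treated over vehicle-treated liver, and the difference is CAR-deficient minus WT. The 12 other arrays hold CAR/PXR-deficient and PXR-deficient livers, 6 of each, and are used below for 1 test of the difference between PXR backgrounds.

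CAR and PXR are nuclear receptors of the liver that respond to drugs and other foreign compounds and switch on genes of drug metabolism, prominent among them cytochrome P450 enzymes, conjugating enzymes and transporters. Phenobarbital, a barbiturate, is a classical inducer of these genes: it brings CAR into the nucleus without having to bind it as a ligand. The targets of the receptors overlap, so a mouse that lacks CAR still has PXR through which inducers can act.

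CAR-deficient and WT mice were C57BL/6J males. Phenobarbital was injected intraperitoneally at 100 mg/kg and livers were taken 12 h later, with the RNA of the treated liver labelled with Cy5. The Cy3 side of every array was vehicle liver: RNA of 6 mice that had received 5% DMSO in corn oil, pooled within the genotype. Deficient mice were 9 to 12 weeks old, and the age of WT mice is not stated. The labels state neither how the CAR allele was made nor that the 6 replicates are separate mice, so p-values measure the spread between these samples, which may be technical. Each genotype has 1 pool, so a ratio moves with that pool as well as with the treated liver, and the spread between vehicle mice is not in the error. For WT replicate 1 a treatment tag of the Cy3 channel names phenobarbital, against its source name and protocol, and it was read as the vehicle pool.

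The array (Sterolgene V1) is a focused design of 120 mouse probes, each spotted 3 times. The tables used here do not pair its probes with genes, so probes are given by number, no gene is named and the genotypes could not be checked on the receptor transcripts. Of the 120 probes, 80 were bright enough to be tested, and Mm024 and Mm038 among them had no usable CAR-deficient ratio, which left 78 differences. CAR-deficient arrays had 66 to 95 probes above background (median 76.5), against 44 to 115 on WT arrays (median 56). The share of probe spots flagged by the authors was 24.4% to 46.4% on CAR-deficient arrays, against 0% to 66.4% on WT arrays. Within WT, replicates 2 and 6 stood apart: leaving out Mm038 and Mm039, their ratios correlated at r = 0.97 with each other and at -0.22 to 0.11 with the other WT arrays, which correlated at 0.33 to 0.87 among themselves. Their difference exceeded the noise between copies of a spot (variance ratio 1.79), so they were kept as separate arrays, and differences with an unadjusted p under 0.05 that rest on them are also given without them.

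The largest differences with CAR loss were at Mm039 and Mm038, the probes with the highest ratios after phenobarbital in WT liver. The log2 ratio of Mm039 was 0.14 in CAR-deficient replicate 5 and 0.00 in CAR-deficient replicate 6, and its spots were flagged on the 4 other CAR-deficient arrays. In WT liver the log2 ratio of Mm039 was 2.18, 2.66, 3.21, 3.27, 1.58 and 3.07 in replicates 1 to 6. Both usable CAR-deficient values thus lay near no change, and the lowest WT value was far above them. The difference was -2.59 (SE 0.49, 95% interval -3.64 to -1.54, n = 2 and 6), with an adjusted p of 0.00650 in limma. Mm039 was bright enough to be tested through the WT and PXR-deficient groups, where its treated samples were above background. A stricter filter on dim probes leaves it out, so this p-value is given as a description. In the vehicle pool of WT mice Mm039 exceeded background on 1 of 6 arrays, and the WT ratio and the difference therefore rest on a denominator near background. Mm039 was 1 of 78 probes past the adjusted threshold of 0.05 (1.28%), and it was lower. Leaving out CAR-deficient replicate 5 gave -2.66 (adjusted p = 0.0922) and leaving out replicate 6 gave -2.52 (adjusted p = 0.111), each with 1 CAR-deficient value, which was assumed to vary like the other groups. By their spot coordinates 3 CAR-deficient and 5 WT arrays lay in the upper position of a slide, and 3 CAR-deficient and 1 WT array in the lower. Mm039 had 1 CAR-deficient value in each position: it differed by -2.44 from the 5 upper WT arrays and by -3.07 from the 1 lower WT array, which gives no check within a position.

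Mm038 had no usable spot on any CAR-deficient array, so it has no ratio there under the settings used. In WT liver the log2 ratio of Mm038 was 2.48, 3.07, 3.67, 3.92, 1.87 and 3.04 in replicates 1 to 6. The missing side of this comparison is seen in the single channels. The treated-channel level of Mm038, in normalized log2 intensity, was 7.20, 7.25, 7.30, 7.56, 7.29 and 7.57 in CAR-deficient replicates 1 to 6, against 11.82, 12.60, 12.87, 12.80, 11.91 and 12.36 in WT replicates 1 to 6. None of the 6 CAR-deficient treated samples lay well above background and all 6 WT treated samples did. With the CAR-deficient level set at its background bound, Mm038 was at least 15.4-fold dimmer in treated CAR-deficient liver than in treated WT liver. In the vehicle pools Mm038 was above background on 0 of 6 CAR-deficient arrays and on 1 of 6 WT arrays. Its pool level was nevertheless lower in CAR-deficient arrays, at a mean of 7.58 against 9.39 in WT arrays, and the groups did not overlap. Mm039 was above background in the treated channel on 2 of 6 CAR-deficient arrays and 6 of 6 WT arrays, and in the pool on 2 of 6 CAR-deficient and 1 of 6 WT arrays. The pool level of Mm039 averaged 8.20 in CAR-deficient and 9.46 in WT arrays, also without overlap.

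The flag on these spots mostly marks dimness: of 1672 probe spots with that flag in both groups, 92.4% were above background in neither channel. When such spots were kept, Mm038 had log2 ratios of -0.29 to -0.05 in CAR-deficient liver (median -0.16) and 1.69 to 4.02 in WT liver (median 3.04). The groups did not overlap, and the means differed by -3.15 at Mm038 and by -2.78 at Mm039. Under this setting 8 of 80 probes (10%) passed the threshold, 4 higher and 4 lower in CAR-deficient liver. These differences are given as a description: both channels of the CAR-deficient spots and most WT pool spots lay near background, and both probes passed the filter on dim probes through the WT and PXR-deficient groups, where all 6 treated samples were above background.

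**Figure D1:**
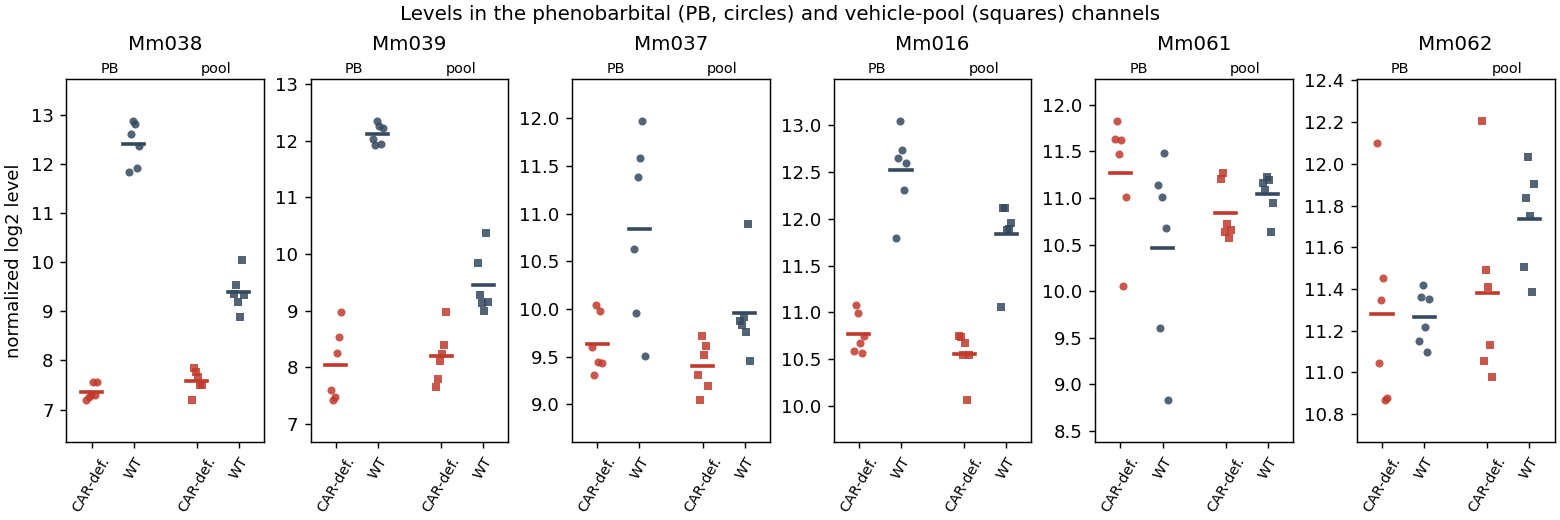
Normalized log2 levels of 6 probes in the phenobarbital channel (PB, circles) and the vehicle-pool channel (squares), for 6 CAR-deficient arrays (red) and 6 WT arrays (blue), with group means as lines. The treated channel of Mm038 lies at 7.20 to 7.57 in CAR-deficient arrays, none of them above background. In WT arrays it lies at 11.82 to 12.87. Mm038, Mm039 and Mm016 are lower in CAR-deficient arrays in both channels, without overlap. Each panel has its own axis.

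Apart from Mm039 no probe passed the adjusted threshold with all arrays and loess normalization, and Mm038 had no difference to test. That count depended on single arrays and on the normalization: 12 of 78 probes (15.4%) passed without WT replicate 5, 6 higher and 6 lower, 5 (6.41%) passed without WT replicate 1, and 7 (8.97%) passed with median centring. At an unadjusted p under 0.05 there were 21 of 78 probes (26.9%), 11 higher and 10 lower in CAR-deficient liver, and 14 of the 21 had values on all 12 arrays. The remaining 57 probes differed by -0.38 to 0.36 with adjusted p of 0.221 or more. Under loess normalization the 95% interval lay within 1 log2 unit of 0 for 69 of the 78 probes. A change of ratio above 2-fold therefore lies outside the interval for those, given where loess sets 0. When arrays were centred on the calibration spike-ins instead, the median difference over tested probes was 0.98. Which centring is nearer to the RNA amounts was not tested, so the intervals do not exclude a 2-fold change under every centring. With at least 4 values in each group, 1 of 56 probes (1.79%) had groups that did not overlap, and that probe was Mm062.

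**Figure D2:**
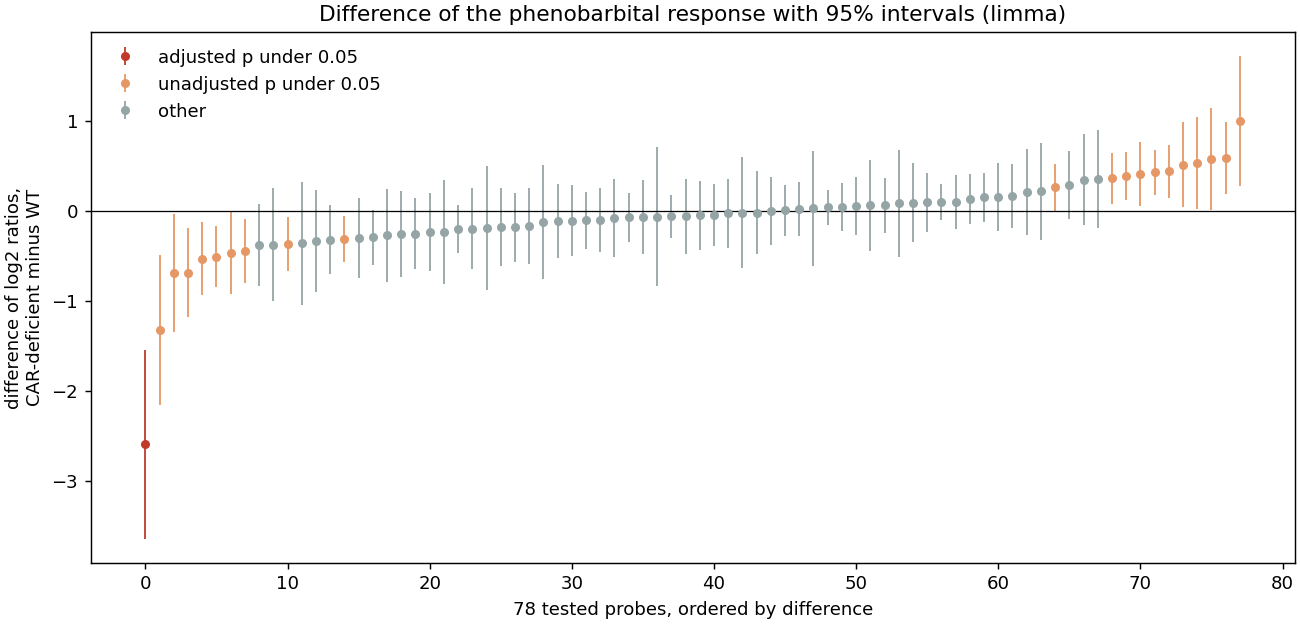
Difference of the log2 ratio, CAR-deficient minus WT, for 78 tested probes in order of size, with 95% intervals from limma. Mm039, at -2.59, is the 1 probe with an adjusted p under 0.05, and 20 more have an unadjusted p under 0.05.

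Among the probes whose ratio was lower in CAR-deficient liver, Mm037, Mm050 and Mm157 had 6 values on each side. Mm037 had log2 ratios of -0.07 to 0.36 in CAR-deficient liver (median 0.28) and 0.05 to 1.83 in WT liver (median 0.92), a difference of -0.68 (SE 0.24, limma adjusted p = 0.0775). CAR-deficient arrays lay close together, and WT replicates 2 and 6, at 0.34 and 0.05, fell among them. Without these 2 WT arrays the difference of Mm037 was -1.04 (limma adjusted p = 0.00545). Mm050 had log2 ratios of -0.18 to 0.43 in CAR-deficient liver (median 0.25) and 0.03 to 1.07 in WT liver (median 0.91), a difference of -0.53 (SE 0.20, limma adjusted p = 0.0930). The groups overlapped at Mm050 through WT replicate 5 alone, at 0.03, since the next lowest WT array was at 0.59. Without WT replicates 2 and 6 the difference of Mm050 was -0.44 (limma adjusted p = 0.404). Mm157 had log2 ratios of -0.38 to 0.13 in CAR-deficient liver (median -0.14) and -0.16 to 0.88 in WT liver (median 0.27), a difference of -0.50 (SE 0.16, limma adjusted p = 0.0701). At Mm157 the 2 highest values, 0.88 and 0.86, were WT replicates 2 and 6, and without them the difference was -0.26 (limma adjusted p = 0.417). Treated-channel means, CAR-deficient minus WT, differed by -1.20 at Mm037, -0.38 at Mm050 and -0.06 at Mm157. Pool means differed by -0.56, 0.15 and 0.44 at these probes. How far the differences of ratios rest on the pools was not tested.

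Mm016 had a lower level in both channels of the CAR-deficient arrays. Its log2 ratio was -0.16 to 0.50 in CAR-deficient liver (median 0.27) and 0.41 to 0.93 in WT liver (median 0.69), a difference of -0.46 (SE 0.22, limma adjusted p = 0.171). The treated-channel level averaged 10.77 in CAR-deficient liver and 12.52 in WT liver, and the pool level averaged 10.55 in the CAR-deficient pool and 11.83 in the WT pool. In neither channel did the groups overlap. Of 27 probes above background in both channels on all 12 arrays, Mm016 was the 1 whose groups were apart in the treated channel, and 3 were apart in the pool: Mm016, Mm154 and Mm044. The pool level of Mm154 averaged 13.34 in the CAR-deficient pool and 14.14 in the WT pool, and its log2 ratios differed by 0.27 (limma adjusted p = 0.171). The pool level of Mm044 averaged 12.54 in the CAR-deficient pool and 13.10 in the WT pool. The 6 pool values of a genotype are repeat measurements of 1 pool, so these levels have no replicate check.

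Of the other lower probes, Mm144 and Mm052 had fewer WT values. Mm144 differed by -1.32 (SE 0.38, limma adjusted p = 0.0701), with 5 CAR-deficient log2 ratios from -0.32 to 0.42 and 2 WT values, 0.59 and 1.87. The higher WT value of Mm144 was that of replicate 6, and replicate 1 alone gave a difference of -0.68 (limma adjusted p = 0.417). Mm052 differed by -0.69 (SE 0.30, limma adjusted p = 0.171), with 0.03 to 0.87 in CAR-deficient liver (median 0.28) and 0.29, 1.29, 2.06 and 0.39 in WT replicates 2, 3, 4 and 6. The lower Mm052 values among WT were again those of replicates 2 and 6, and without them the difference was -1.36 (limma adjusted p = 0.00950). Treated-channel means, CAR-deficient minus WT, differed by -0.06 at Mm144 and -0.83 at Mm052, and pool means by 0.98 and -0.14. Mm018, Mm102 and Mm155 differed by -0.44, -0.31 and -0.36, each with 6 values in both groups and a limma adjusted p of 0.118. Without WT replicates 2 and 6 these differences were -0.31, -0.15 and -0.28, with limma adjusted p of 0.417 to 0.511. In the same order of probes, treated-channel means differed by 0.29, -0.52 and -0.18, and pool means by 0.73, -0.21 and 0.16. Leaving out WT replicates 2 and 6 gave 3 of 78 probes past the threshold (3.85%), which were Mm037, Mm039 and Mm052, all lower in CAR-deficient liver.

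At the probes with a higher ratio in CAR-deficient liver, the WT ratios were mostly below 0 and the CAR-deficient ratios near 0. Mm042 had the lowest p among them, with log2 ratios of -0.24 to 0.33 in CAR-deficient liver (median 0.19) and -0.53 to 0.05 in WT liver (median -0.35), a difference of 0.43 (SE 0.12, limma adjusted p = 0.0547). The groups overlapped through CAR-deficient replicate 1 and WT replicate 1, at -0.24 and 0.05. Mm062 had log2 ratios of -0.26 to 0.04 in CAR-deficient liver (median -0.10) and -0.61 to -0.29 in WT liver (median -0.50), a difference of 0.37 (SE 0.14, limma adjusted p = 0.0930). At Mm062 every CAR-deficient array lay above every WT array, while the treated-channel means differed by 0.02 log2 units and the pool means by -0.36. Mm020 had log2 ratios of -0.15 to 0.29 in CAR-deficient liver (median 0.10) and -0.67 to -0.09 in WT liver (median -0.36), a difference of 0.44 (SE 0.14, limma adjusted p = 0.0701). Its groups overlapped by a narrow margin, with CAR-deficient replicate 2 at -0.15 below WT replicates 3 and 5.

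At Mm061, Mm044, Mm043, Mm013 and Mm012 the size of the difference depended on WT replicates 2 and 6. Mm061 had log2 ratios of -0.51 to 0.89 in CAR-deficient liver (median 0.49) and -2.11 to 0.30 in WT liver (median -0.12), a difference of 1.004 (SE 0.35, limma adjusted p = 0.0775). WT replicates 2 and 6 were at -1.47 and -2.11, and without them the difference was 0.40 (limma adjusted p = 0.417). Mm044 had log2 ratios of -0.12 to 0.28 in CAR-deficient liver (median 0.06) and -1.34 to 0.25 in WT liver (median -0.36), a difference of 0.59 (SE 0.19, limma adjusted p = 0.0701). Here too the lowest WT values, -1.34 and -1.21, were replicates 2 and 6, and the difference without them was 0.22 (limma adjusted p = 0.417). Treated-channel means, CAR-deficient minus WT, differed by 0.81 at Mm061 and 0.03 at Mm044, and pool means by -0.19 and -0.56. Mm043, Mm046, Mm013, Mm014 and Mm012 differed by 0.39, 0.41, 0.52, 0.54 and 0.58, with limma adjusted p of 0.0742 to 0.171. Without WT replicates 2 and 6, Mm043 differed by 0.19 (limma adjusted p = 0.417), Mm013 by 0.26 and Mm012 by 0.37. Mm046 then differed by 0.39 (limma adjusted p = 0.404) and Mm014 by 0.40 (limma adjusted p = 0.417). Mm012 and Mm013 had 2 WT values each, of which replicate 1 was then left alone. Of the remaining probes that other comparisons of the study turn on, Mm054 differed by 0.04 (95% interval -0.60 to 0.67), with log2 ratios of -0.0044 to 0.62 in CAR-deficient liver and -0.15 to 0.84 on 5 WT arrays. Mm036 differed by 0.02 (95% interval -0.27 to 0.32), and Mm024 had 2 WT values, 0.19 and 1.51, and no CAR-deficient value.

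**Figure D3:**
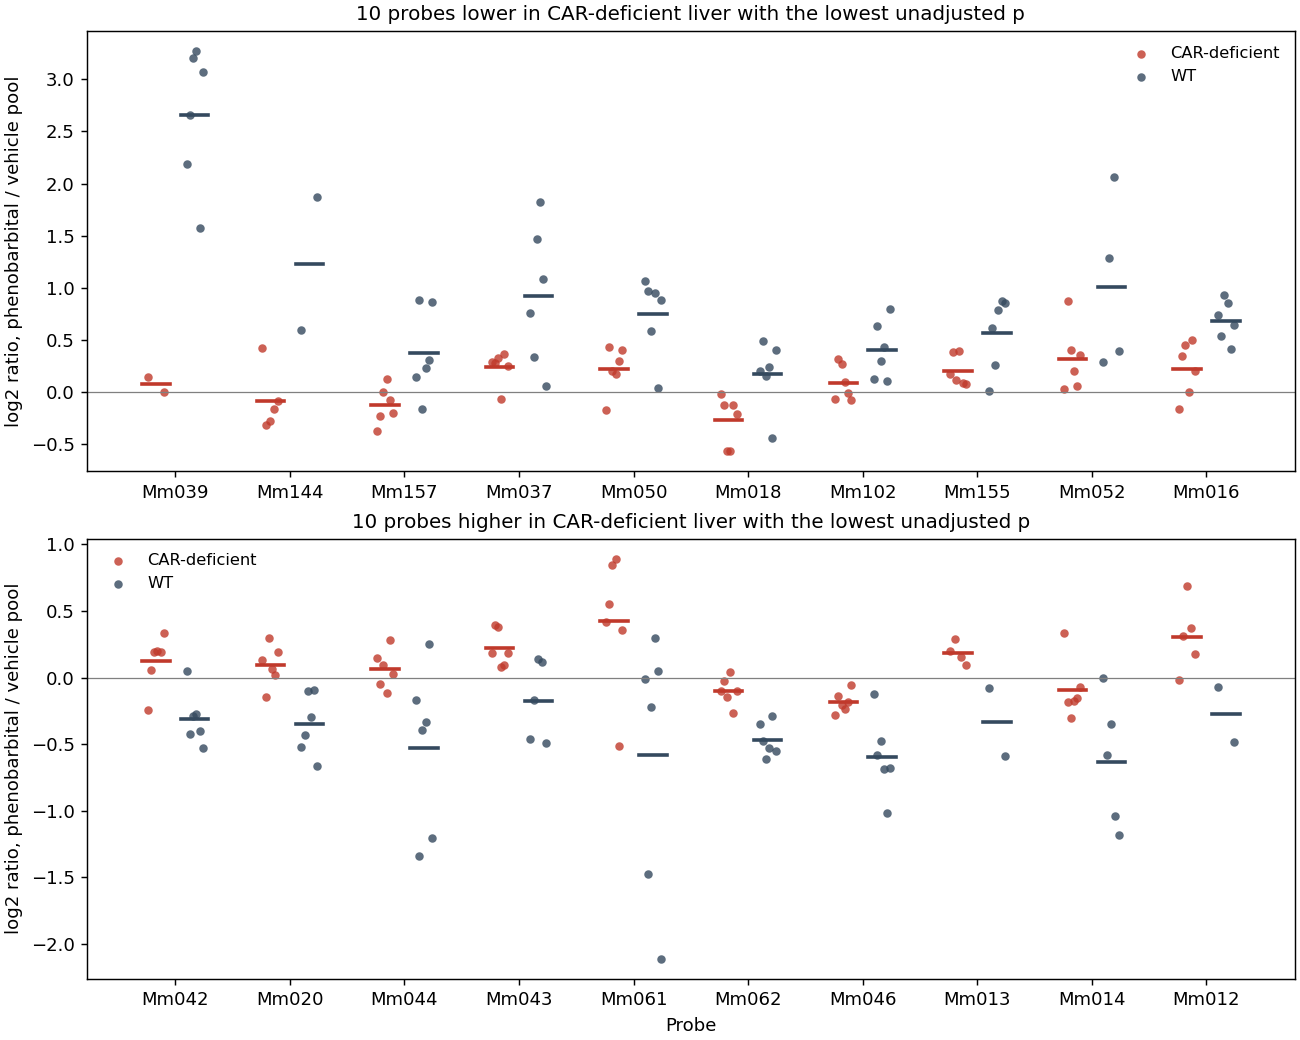
Log2 ratio of phenobarbital-treated liver over the vehicle pool on each CAR-deficient array (red) and WT array (blue), with group means as lines, for the 10 probes with the lowest unadjusted p in each direction; upper panel lower in CAR-deficient, lower panel higher. Mm039 has 2 CAR-deficient values, 0.14 and 0.00, below 6 WT values of 1.58 to 3.27, and among probes with at least 4 values in each group the genotypes are apart at Mm062 alone.

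Phenobarbital responses were next read within each genotype, as group means against 0. In CAR-deficient liver 0 of 78 probes (0%) passed the threshold in limma, and 12 (15.4%) had an unadjusted p under 0.05. In WT liver 20 of 80 probes (25%) passed it, 12 higher (15%) and 8 lower (10%) after phenobarbital. The fit used 1 spread per probe for all groups, while the median SD between replicates was 0.20 in CAR-deficient and 0.42 in WT liver. CAR-deficient means were therefore tested more strictly than WT means, and the count of 0 does not mean that no probe responded. These tests share the WT arrays with the difference above, so the values are set side by side without a further test. Of the 12 probes that rose in WT, 11 had a CAR-deficient value: their median log2 ratio was 0.20 in CAR-deficient liver (range -0.13 to 0.52) and 0.72 over all 12 in WT liver, and 10 of the 11 were nearer to 0 in CAR-deficient liver. Of the 8 probes that fell in WT, all 8 were nearer to 0 in CAR-deficient liver, with medians of -0.10 in CAR-deficient and -0.41 in WT liver. The differences past the threshold numbered 1 of these 11 and 0 of these 8. The probes were chosen as far from 0 in WT, which by itself favours values nearer to 0 in another group, so these counts are a description with no test. Over the tested probes in general the median absolute response was also smaller, 0.11 in CAR-deficient and 0.20 in WT liver. The share of all tested probes nearer to 0 in CAR-deficient liver was not counted, and the counts rest on where loess sets 0.

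The exception among the raised probes was Mm051. Its log2 ratio was 0.21 to 0.67 in CAR-deficient liver (median 0.61) and -0.41 to 1.12 in WT liver (median 0.42), a difference of 0.10 (SE 0.21, 95% interval -0.34 to 0.54, limma adjusted p = 0.852), and of -0.24 without WT replicates 2 and 6 (limma adjusted p = 0.511). It had the lowest p of any response within CAR-deficient liver, with a mean log2 ratio of 0.52 (SE 0.15, limma adjusted p = 0.155) and all 6 arrays above 0. In WT liver Mm051 split: replicates 1, 3 and 4 were at 0.91 to 1.12, and replicates 2, 5 and 6 were at -0.41 to -0.07. Among the probes that fell in WT, the differences closest to 0 were those of Mm136 and Mm047, at 0.04 (95% interval -0.15 to 0.24) and 0.10 (95% interval -0.10 to 0.30).

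The size of the response was also summarised as 1 value per array, the median absolute log2 ratio over the 39 tested probes with a value on all 12 arrays. It was 0.22, 0.23, 0.30, 0.17, 0.21 and 0.11 in CAR-deficient replicates 1 to 6, and 0.20, 0.42, 0.29, 0.46, 0.25 and 0.41 in WT replicates 1 to 6. The mean was 0.207 ± 0.063 in CAR-deficient and 0.339 ± 0.108 in WT liver (SD, n = 6 each), a difference of -0.132 (two-sided exact permutation test, p = 0.0390; the smallest p this design allows is 0.00216). WT replicates 1, 3 and 5 lay within the CAR-deficient range, and replicates 2, 4 and 6 lay above it. The difference was in the same direction when each array was left out in turn, with p of 0.0108 to 0.0758, over 0.05 in 7 of 12 cases. It was -0.122 with WT replicates 2 and 6 averaged and counted once (exact permutation p = 0.0628). With median centring it was -0.235 (exact permutation p = 0.00433). The value of an array also depends on where 0 is set on it, which is taken up with the centring below. A median absolute ratio also rises with the scatter of the ratios. The median SD between replicates was larger in WT liver, 0.42 against 0.20, and the part of scatter in this difference was not tested. The 3 WT arrays above the CAR-deficient range also had fewer probes above background (44 to 55, against 66 to 95 on CAR-deficient arrays). WT replicates 3 and 5, inside the range, had nearly as few (58 and 57), WT replicate 1 had 115, and the part of depth in this difference was not tested.

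**Figure D4:**
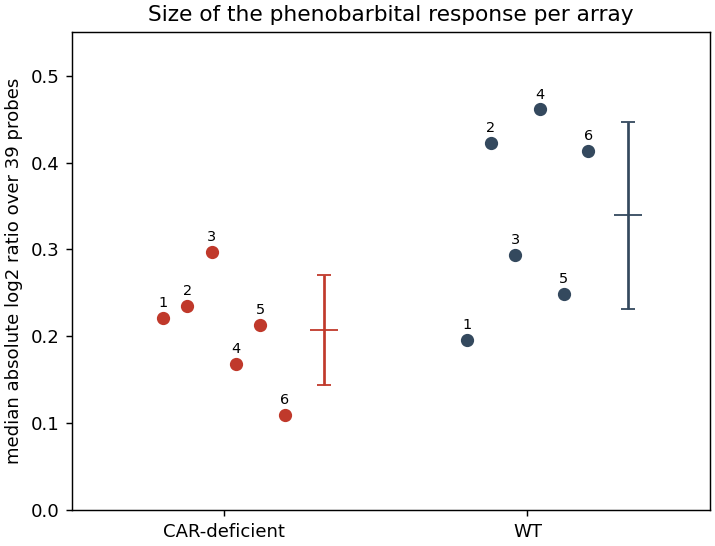
Median absolute log2 ratio over 39 probes on each CAR-deficient (red) and WT (blue) array, numbered by replicate, with group mean and SD at the right of each group. CAR-deficient arrays run from 0.11 to 0.30 and WT arrays from 0.20 to 0.46, with WT replicates 1, 3 and 5 inside the CAR-deficient range.

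CAR-deficient arrays were more alike than WT arrays. Over 47 probes with at least 5 values in both groups, the median SD between replicates was 0.20 in CAR-deficient and 0.42 in WT liver, and it was lower in CAR-deficient liver for 44 of the 47. Without replicates 2 and 6 the median SD in WT was 0.29. The fit used 1 spread per probe for all groups, so errors are too large for CAR-deficient means and too small for WT means where the groups differ this way.

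The direction of a single difference rests on how arrays were centred, and so does the size of a response. Before normalization, the median log2 ratio of the probes minus that of the calibration spike-ins was 0.51 to 0.84 on CAR-deficient arrays. On WT arrays it was -0.74 to 0.22. The size of the response per array was not computed with spike-in centring. Loess sets the bulk of probes on each array near 0, and the median difference over tested probes was -0.05. Relative to the calibration spike-ins the median difference was 0.98, and 50 of 78 tested probes passed the threshold. Of these, 49 were higher and 1 lower in CAR-deficient liver, against 0 higher and 1 lower of 78 with loess. In the authors' deposited table the median difference was 0.81, and 16 of 79 tested probes passed, 16 higher and 0 lower. The 1 lower probe under spike-in centring was Mm039, at -1.68 (limma adjusted p = 0.00643). Relative to the spike-in shift of 0.98, 20 of the 21 probes with an unadjusted p under 0.05 had the sign given above. Subtracting that shift brings the values back close to median centring (at Mm016, -1.08 against -1.06), so this count is no check by the spike-ins. Without subtracting that shift, the lower probes Mm037, Mm050, Mm157, Mm018, Mm102 and Mm155 turned to 0.25, 0.15, 0.26, 0.28, 0.57 and 0.93 under spike-in centring, and Mm039, Mm052, Mm144 and Mm016 were at -1.68, -0.13, -0.02 and -0.11. The labels put the spike-in scorecard in the treated channel and luciferase in the pool channel, and which centring is nearer to the RNA amounts was not tested.

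Finally, the effect of CAR loss was compared between backgrounds, as CAR/PXR-deficient minus PXR-deficient against CAR-deficient minus WT in the same fit. The difference between backgrounds passed the threshold at 11 of 78 probes (14.1%), 2 higher (2.56%) and 9 lower (11.5%) without PXR. Of these 11 probes, none passed the threshold for CAR loss with PXR present, where their differences ran from -0.31 to 0.54. At Mm051, the log2 ratio differed with CAR loss by -1.35 without PXR and by 0.10 with PXR, a difference of -1.44 (SE 0.31, limma adjusted p = 0.00279). Its treated level averaged 13.25 in PXR-deficient and 12.56 in CAR/PXR-deficient liver, and its pool level 11.75 and 12.47. At Mm014 the ratio differed with CAR loss by -0.86 without PXR and by 0.54 with PXR, a difference of -1.40 (SE 0.38, limma adjusted p = 0.0175). The treated level of Mm014 averaged 9.09 in PXR-deficient and 9.52 in CAR/PXR-deficient liver, and its pool level 9.36 and 10.50. The 7 other probes with a lower value without PXR were Mm027, Mm133, Mm002, Mm013, Mm046, Mm112 and Mm036. Their differences between backgrounds were -1.08 to -0.70, and Mm102 was higher by 0.92. In PXR-deficient and CAR/PXR-deficient arrays, Mm133 had treated levels of 10.88 and 10.86 and pool levels of 10.55 and 11.65. Mm102 had treated levels of 10.47 and 11.08 and pool levels of 11.12 and 11.09. In the same order, treated levels were 12.28 and 12.27 at Mm027, 10.30 and 10.62 at Mm002, and 12.05 and 12.89 at Mm046. Their pool levels were 11.75 and 12.91, 10.21 and 11.21, and 12.16 and 13.36. At Mm013, Mm112 and Mm036 treated levels were 8.38 and 8.31, 9.20 and 9.04, and 12.60 and 12.46. Their pool levels were 8.99 and 8.64, 9.15 and 9.38, and 11.96 and 12.47. With 1 pool per genotype, how far these differences rest on the pools was not tested. The count of 11 was 0 with spike-in centring, 1 in the authors' deposited table and 7 without WT replicates 2 and 6, and it ranged from 7 to 15 when 1 array of either group was left out.

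Mm001 showed the largest difference of the 11, with 2.13 without PXR and -0.19 with PXR, a difference of 2.32 (SE 0.49, limma adjusted p = 0.00279). Its group means were 0.03 in CAR/PXR-deficient, -2.10 in PXR-deficient, -0.08 in CAR-deficient and 0.11 in WT liver. The PXR-deficient group was thus the one away from 0. The pool level of Mm001 averaged 11.47 in the PXR-deficient pool, against 9.95 in CAR/PXR-deficient, 9.61 in CAR-deficient and 9.92 in WT. Its treated level averaged 9.38, 9.98, 9.54 and 10.03 in the same order of genotypes. Each genotype has 1 pool, and the part of the pools in this difference was not tested. In WT liver Mm001 was at 1.48 and 1.64 in replicates 2 and 6 and at -1.18 to -0.41 in the others, and without those 2 arrays CAR loss with PXR present gave 0.54 (limma adjusted p = 0.0604). At Mm039, CAR loss gave -3.27 without PXR and -2.59 with PXR, a difference between backgrounds of -0.68 (SE 0.66, 95% interval -2.08 to 0.73, limma adjusted p = 0.543).

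**Figure D5:**
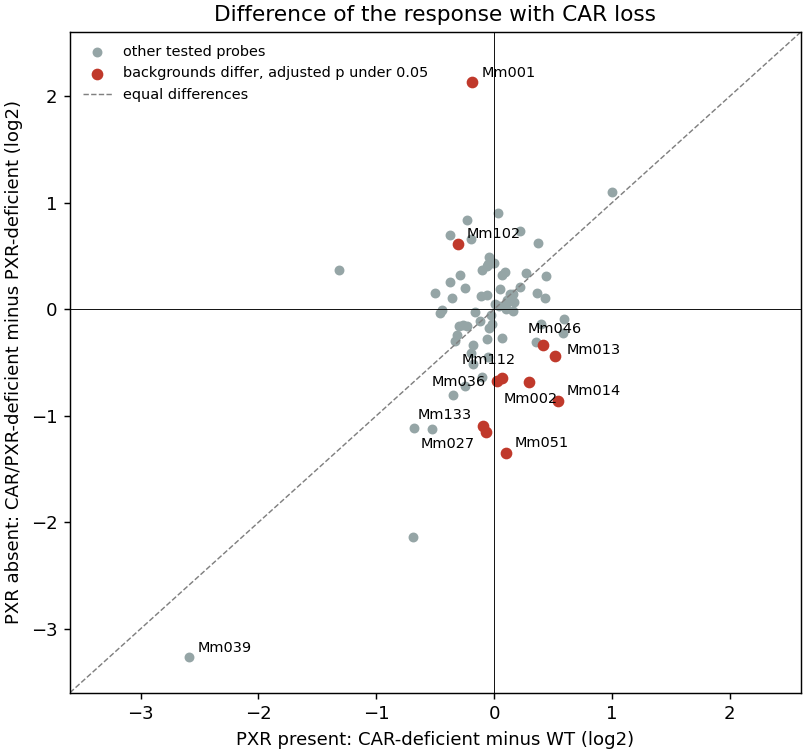
Difference of the log2 ratio with CAR loss for 78 probes, without PXR (vertical axis, CAR/PXR-deficient minus PXR-deficient) and with PXR (horizontal axis, CAR-deficient minus WT), with a dashed line at equal differences. The 11 probes in red differ between backgrounds at an adjusted p under 0.05, with Mm001 at 2.13 and -0.19, while Mm039 lies low on both axes at -3.27 and -2.59.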

How the data were processed

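Per the labels, each array compared Cy5-labelled RNA of treated liver with Cy3-labelled RNA of a vehicle pool, without dye swaps, so a dye bias of a single probe remains in each ratio. Per the file headers, the deposited spot files give mean and median pixel intensity and local background intensity in both channels, the percent of saturated pixels, a signal-to-noise score (not used) and a flag. What the flags mean, and which scanner and software were used, is not given in the sources used here. Log2 ratios make up the authors' deposited value table, with a centring that is not stated; its columns correlated with the unnormalized log2 ratios at r of 0.772 to 0.975 over the 24 arrays, and it served as an alternative.

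Here, with R 4.3.3 and limma 3.58.1, the mean intensities were background-corrected by normexp (offset 50). Loess normalization within arrays used unflagged probe spots, and the unflagged copies (of 3) were averaged per probe. Tests were limited to probes for which at least 2 spots exceeded the local background by 2 SD in either channel on at least 12 of the 24 arrays. One group-means fit (lmFit, eBayes) held 23 samples, since replicates 1 and 2 of the PXR-deficient group were alike within the noise between copies and were counted as 1. Adjusted p-values are from this limma fit by the Benjamini-Hochberg method over all probes tested in a comparison, two-sided, threshold 0.05. Channel levels were Aquantile-normalized. A level bound used, on each array, the higher of the probe's signal and the lowest signal above background. The number of arrays limits the precision.

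Members and lists were chosen with earlier results of these data known. Probes named are those past the threshold in the difference, in either response or between backgrounds, the 10 with the lowest unadjusted p in each direction, those whose groups did not overlap, and 15 that other comparisons of the series turn on. Mm154 was outside this rule and was named after its values were seen. Gene lists and marker lists that had been planned could not be read without gene names. Alternatives covered background correction, normalization, filters, flags, weights, samples, blocks and each array left out; those for slide position and for WT replicates 2 and 6 together were chosen after seeing the data. Figures were drawn with Python 3.11.15 and matplotlib 3.10.9.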

Additional observations from a re-analysis of the deposited data

Results flagged for a closer look

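Of 58 groups of 4 to 6 values tested for a sample far from the rest, 3 held one, and chance gives about 1 in 20 groups. Mm014 in CAR-deficient replicate 1 had a log2 ratio of 0.34, and the nearest other CAR-deficient array was at -0.07. Mm037 in CAR-deficient replicate 4 was at -0.069, and the nearest other was at 0.25. Mm018 in WT replicate 5 was at -0.44, and the nearest other WT array was at 0.16.

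Under loess normalization the ratio difference with CAR loss differed between the backgrounds without and with PXR at 11 of 78 probes (14.1%). This is the contrast of both differences in the limma fit. The count was 0 with spike-in centring. How far the contrasts rest on the 1 pool of each genotype was not tested. The contrast was 2.32 at Mm001 and 0.92 at Mm102, higher without PXR. It was -1.44 at Mm051, -1.40 at Mm014, -1.08 at Mm027, -1.003 at Mm133, -0.97 at Mm002, -0.96 at Mm013, -0.75 at Mm046, -0.71 at Mm112 and -0.70 at Mm036, lower without PXR.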

How the results depend on the processing

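The count of probes past the threshold in CAR-deficient minus WT was 1 and moved under most settings. It was 0 with no background correction, with scale normalization, with the stricter filter (which leaves out Mm039) and among upper arrays. It was 2 with normexp on medians, with print-tip loess, with CAR-deficient and WT fitted alone and with every array counted. It was 3 with array weights and without both WT replicates 2 and 6, 5 in the authors' table after median centring, 7 with median centring, with all spots kept and among lower arrays (where WT has 1 array, assumed to vary like the other groups), 8 with dim flagged spots kept, 16 in the authors' table and 50 with spike-in centring. Leaving out 1 array gave 0 to 12, with 12 without WT replicate 5 and 5 without WT replicate 1. The difference between PXR backgrounds, 11 probes, numbered 0 with spike-in centring and among upper arrays, 1 in the authors' table, 5 among lower arrays, 6 with median centring and with scale normalization, 7 without WT replicates 2 and 6, and 7 to 15 leaving out 1 array. Mm039 had a negative difference under the 31 alternative settings that give it a value, and passed in 26. It was lost with no background correction (-1.95), scale normalization (-2.11), the authors' table (-1.20) and without CAR-deficient replicate 5 or 6, and ranged from -2.81 to -2.47 leaving out 1 array. Spike-in centring turned Mm001 to 0.98, Mm104 to 0.97, Mm133 to 0.85 and Mm155 to 0.93, all past the threshold there, and turned Mm018, Mm027, Mm037, Mm050, Mm102 and Mm157 to values of 0.15 to 0.57 that were not. The difference in response size, -0.132, was -0.112 with no background correction (exact permutation p = 0.0584), -0.122 with WT replicates 2 and 6 averaged and counted once (p = 0.0628) and -0.161 to -0.108 leaving out 1 array. Replicate numbers are shared by both genotypes but did not pair the arrays: same-numbered arrays correlated at r of -0.52 to 0.56, over 0.1 in 1 of 6, and 0 of 6 CAR-deficient arrays correlated best with their own number. With the replicate block the counts were 1 and 11, and Mm039 differed by -2.18 (limma adjusted p = 0.0242). The causes of these changes were not tested. Dim probes limit what can be read: 17 of the tested probes had under 3 WT values and 3 had under 3 CAR-deficient values.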
